A study of Homo sapiens with 12 samples.

Results

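The microRNAs (miRNAs) hsa-miR-4483, hsa-miR-4521, hsa-miR-7974, and hsa-miR-1303, little-described members of the human catalogue with late numbers, were followed through TGF-β treatment of A549 cells. They are 4 of the 2588 mature miRNAs listed in the count table, each with 1 entry, and they were picked by name because earlier results from these same libraries had them falling at 24 h and 96 h. Their falls are therefore selected values. Thresholds that they pass below are given as description and not as a test. A549 is a human lung adenocarcinoma line with epithelial morphology, and TGF-β drives it through the epithelial-to-mesenchymal transition (EMT). The cells were held in serum-free medium before TGF-β1 was added, and small RNA was sequenced at 0, 24, and 96 h, with a pair of libraries per time point and a pair of sequencing runs per library, 6 libraries and 12 runs in all. The 0 h libraries received no TGF-β1 and served as the baseline for both later time points, while untreated cultures at 24 h and 96 h were not analysed here, so that treatment and time in culture cannot be told apart. The labels do not say whether the 2 libraries of a time point came from separate cultures, so that the spread between them may be technical.

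A miRNA is a short RNA cut from a hairpin precursor, and it guides Argonaute proteins to messenger RNAs that match its seed, bases 2 to 8 from the 5′ end. The bound messengers are repressed or degraded, and miRNAs with the same seed share many targets. In epithelial cells TGF-β signals through SMAD proteins to the ZEB and SNAIL repressors of the epithelial program, and the miR-200 family is known to oppose ZEB. The paper reports low levels of SNAIL, ZEB, and miR-200c in A549 cells, and speculates that this circuit does not operate in them. The roles of the 4 miRNAs described here in that circuit are not stated in the sources used.

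The mature sequences show whether the 4 miRNAs could share targets or reads. They are given 5′ to 3′ as in RefSeq, with the seed in capitals.
hsa-miR-4483: gGGGUGGUcuguuguug
hsa-miR-4521: gCUAAGGAaguccugugcucag
hsa-miR-7974: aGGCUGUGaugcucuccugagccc
hsa-miR-1303: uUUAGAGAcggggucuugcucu
The 4 seeds all differ, and none of the 4 sequences is a variant of another. hsa-miR-4483 has 17 bases, hsa-miR-4521 and hsa-miR-1303 have 22, and hsa-miR-7974 has 24. The median length was 22 bases among the 434 tested miRNAs with a RefSeq sequence, of which 7 had 17 bases or fewer and 18 had 24 or more. The share of G and C was 58.8% in hsa-miR-4483, 54.5% in hsa-miR-4521, 62.5% in hsa-miR-7974, and 50% in hsa-miR-1303.

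All 4 miRNAs had counts in all 6 libraries, and all 4 passed the filter on low counts, which kept 491 miRNAs for testing. The library totals were 2335185 and 2456447 before treatment, 2545769 and 3214230 after 24 h, and 5971197 and 4658823 after 96 h, so that 1 read was worth 0.167 to 0.428 counts per 1000000 counts of the library total (CPM). Levels below are CPM after TMM scaling, which gives each library a single factor on the assumption that most miRNAs do not change. The 95% Wilson intervals quoted with the levels cover counting error alone. All levels are of bulk RNA, where fewer cells holding a miRNA and less of it per cell cannot be told apart.

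hsa-miR-4521 had the highest mean level of the 4 at each time point. It was counted 499 and 572 times before treatment, 275 and 420 times after 24 h, and 159 and 116 times after 96 h, although the 96 h libraries were the deepest. Its levels were 182.9 and 170.8 CPM before treatment, 102 and 129 CPM after 24 h, and 36.1 and 31.5 CPM after 96 h. The 3 time points did not overlap and formed a descending order. The mean was 177 ± 8.58 CPM (SD, n = 2) at 0 h, 115 ± 18.5 at 24 h, and 33.8 ± 3.26 at 96 h, which left 65.3% of the starting level at 24 h and 19.1% at 96 h.

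hsa-miR-7974 started at a similar level and fell earlier. Its counts were 448 and 512 before treatment, 121 and 158 after 24 h, and 136 and 116 after 96 h. Its levels were 164 and 153 CPM before treatment, 45.05 and 48.4 CPM after 24 h, and 30.9 and 31.5 CPM after 96 h. The libraries of each time point lay close together, and no library of 1 time point overlapped another. The mean went from 159 ± 8.03 CPM (SD, n = 2) at 0 h to 46.7 ± 2.34 at 24 h and 31.2 ± 0.427 at 96 h, or 29.5% and 19.7% of the start. The 96 h libraries differed by a factor of 1.02, the tightest of the 4 miRNAs at that time.

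hsa-miR-1303 also had most of its fall by 24 h, with a wider spread. Its counts were 190 and 146 before treatment, 45 and 65 after 24 h, and 76 and 30 after 96 h. Its levels were 69.6 and 43.6 CPM before treatment, 16.8 and 19.9 CPM after 24 h, and 17.3 and 8.14 CPM after 96 h. Both 0 h libraries were above all 4 later libraries, but the 24 h and 96 h libraries overlapped. The intervals of the 0 h libraries, 60.4 to 80.3 and 37.1 to 51.2 CPM, were apart, and so were those of the 96 h libraries, 13.8 to 21.6 and 5.70 to 11.6 CPM, so that counting error alone did not cover the difference within either pair. The means were 56.6 ± 18.4 CPM (SD, n = 2), 18.3 ± 2.22, and 12.7 ± 6.44 at 0, 24, and 96 h, with 32.4% of the start left at 24 h and 22.4% at 96 h.

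hsa-miR-4483 was the least abundant of the 4. It was counted 74 and 77 times before treatment, 23 and 34 times after 24 h, and 6 and 21 times after 96 h. Its levels were 27.1 and 23.0 CPM before treatment, 8.56 and 10.4 CPM after 24 h, and 1.36 and 5.70 CPM after 96 h. The 3 time points did not overlap, but the 96 h libraries differed by a factor of 4.18. Their intervals, 0.624 to 2.97 and 3.73 to 8.71 CPM, did not meet. The mean fell from 25.1 ± 2.92 CPM (SD, n = 2) to 9.48 ± 1.30 at 24 h and 3.53 ± 3.07 at 96 h, which is 37.9% and 14.1% of the start.

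**Figure D1:**
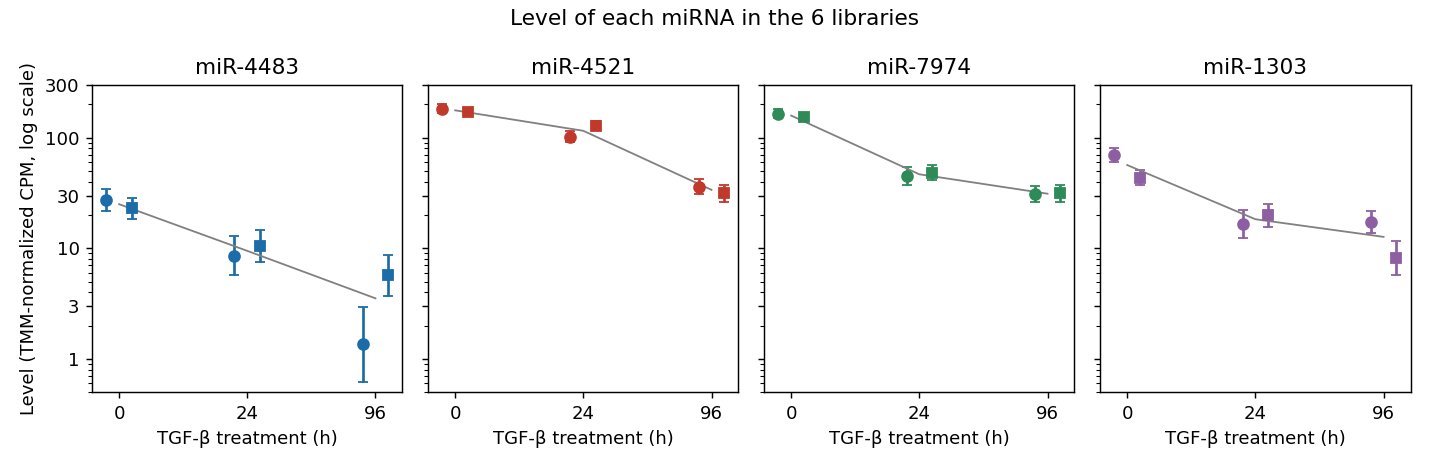
TMM-normalized CPM on a log axis against hours of TGF-β (0, 24, and 96 h, drawn to equal steps), with 1 panel per miRNA. Circles are replicate 1 and squares replicate 2, with 95% Wilson intervals of the count, and the line joins the means; hsa-miR-4483 and hsa-miR-1303 spread most at 96 h, where their library values differ by factors of 4.18 and 2.12.

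The order of the mean levels stayed the same over time, while the gaps between them changed. At 0 h the 4 miRNAs ranked hsa-miR-4521, hsa-miR-7974, hsa-miR-1303, and hsa-miR-4483 from high to low in both libraries, although the ranges of the first pair were adjacent, 170.8 to 182.9 against 153 to 164 CPM. At 24 h hsa-miR-4521 stood clear of hsa-miR-7974, and at 96 h the first pair was level again, with 31.5 CPM for each in replicate 2. By rank among all listed miRNAs in a library, hsa-miR-4521 was 115th in both 0 h libraries and 215th and 226th at 96 h, and hsa-miR-7974 was 119th and 122nd and then 231st and 226th. hsa-miR-1303 moved from 169th and 199th to 279th and 331st, and hsa-miR-4483 from 235th and 250th to 531st and 372nd. Together the 4 miRNAs took 0.0519% and 0.0532% of the reads before treatment, 0.0182% and 0.0211% after 24 h, and 0.00631% and 0.00607% after 96 h.

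At 96 h against 0 h, all 4 were lower past both thresholds used for a differentially expressed miRNA, a log2-fold change beyond 1 in size and an adjusted p below 0.05. Of all tested miRNAs, 13.2% were lower by this rule, and 38.7% had both 96 h libraries below both 0 h libraries. That contrast helped to choose the 4 miRNAs, so nothing is read from these counts. The log2-fold change was -2.86 (SE 0.47) for hsa-miR-4483, -2.38 (SE 0.19) for hsa-miR-4521, -2.34 (SE 0.17) for hsa-miR-7974, and -2.13 (SE 0.35) for hsa-miR-1303, against a median of -0.10 over the 491 tested. Counted from the lowest, these were the 5th, 12th, 14th, and 19th of 491. Among the 322 tested miRNAs at 10 CPM or more on average, they were the 1st, 4th, 5th, and 6th, so most miRNAs with a larger fall were scarcer.

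**Figure D2:**
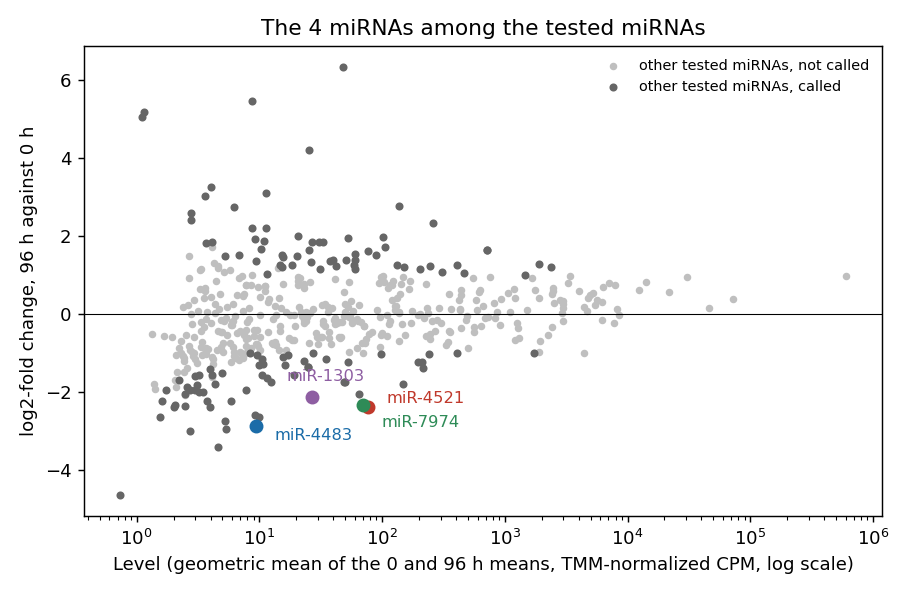
Log2-fold change at 96 h against 0 h plotted against the geometric mean of the 0 h and 96 h mean levels (TMM CPM, log axis) for the 491 tested miRNAs, each a point, with those past both thresholds (called) in the darker shade and the 4 miRNAs in colour. The 4 miRNAs, chosen for this fall, lie at log2-fold changes of -2.86 to -2.13, below most miRNAs of their level.

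The size of the fall of hsa-miR-4483 and hsa-miR-1303 depended on the 96 h library used. Without 96 h replicate 2, the log2-fold change was -4.12 for hsa-miR-4483, and without 96 h replicate 1 it was -2.10. For hsa-miR-1303 the order was the opposite, with -1.66 without replicate 2 and -2.75 without replicate 1, so that a different 96 h library was the lower one for each. hsa-miR-4521 and hsa-miR-7974 moved little, from -2.46 to -2.25 and from -2.39 to -2.25 over the 6 libraries left out in turn.

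At 24 h against 0 h, hsa-miR-7974 and hsa-miR-1303 were lower past both thresholds, with log2-fold changes of -1.76 (SE 0.17) and -1.61 (SE 0.34). Of all tested miRNAs, 2.24% were lower by the same rule and 28.5% had both 24 h libraries below both 0 h libraries, as all 4 of the chosen miRNAs did. This contrast also helped to choose the 4 miRNAs, so nothing is read from their calls or ranks here. hsa-miR-7974 had the lowest log2-fold change of all 491 at this time, and hsa-miR-1303 the 5th lowest. hsa-miR-4483 had a log2-fold change of -1.39 (SE 0.42), the 13th lowest, and did not pass the threshold on the adjusted p. hsa-miR-4521 had -0.61 (SE 0.18), the 78th lowest, and passed neither threshold, with an adjusted p of 0.0615 by edgeR's quasi-likelihood test. For hsa-miR-1303 the 24 h result depended on single libraries. With a 24 h library left out, the remaining one is assumed to vary like the libraries of the other time points. On that assumption it did not pass the adjusted p without either 24 h library, at -1.47 without replicate 1 and -1.79 without replicate 2, and its value was -1.21 when 0 h replicate 1 was dropped and -1.91 when 0 h replicate 2 was.

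From 24 h to 96 h the order was different. hsa-miR-4521 alone of the 4 passed both thresholds, with a log2-fold change of -1.77 (SE 0.19), the 14th lowest of 491. Of all tested miRNAs, 2.24% were lower by the rule and 31.6% had both 96 h libraries below both 24 h libraries, which held for 3 of the 4 chosen miRNAs and not for hsa-miR-1303. hsa-miR-4483 had -1.48 (SE 0.51), hsa-miR-7974 -0.58 (SE 0.18), and hsa-miR-1303 -0.51 (SE 0.37). With 96 h replicate 2 dropped, hsa-miR-4483 had -2.69, and with replicate 1 dropped it had -0.68. For hsa-miR-1303 the later step shrank to -0.01 when 96 h replicate 2 was dropped and came to -1.11 when replicate 1 was, so for both miRNAs its size depended on which 96 h library was used. The comparisons with 0 h share their 0 h libraries, and those with 24 h their 24 h libraries, so the steps are not independent of each other.

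Read as a share of the 96 h change on the log2 scale, hsa-miR-7974 and hsa-miR-1303 had 75.1% and 75.9% of it at 24 h, hsa-miR-4483 had 48.5%, and hsa-miR-4521 had 25.7%. These shares describe an early pair, a late miRNA, and one between them, and for hsa-miR-4483 and hsa-miR-1303 they carry the spread of the 96 h libraries given above.

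**Figure D3:**
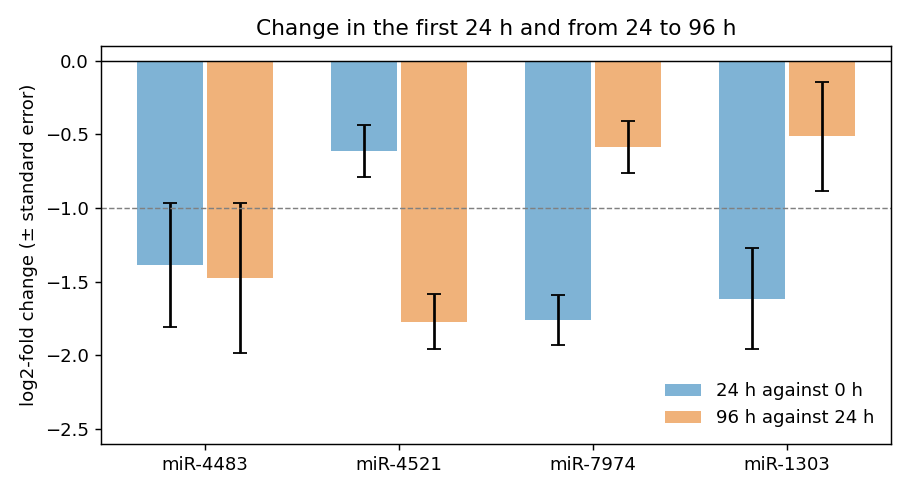
Log2-fold changes of the 4 miRNAs from 0 to 24 h and from 24 to 96 h, as bars from 0 with standard errors from the edgeR fit; the dashed line marks the minimum fold change at -1. hsa-miR-7974 and hsa-miR-1303 have their larger step first (-1.76 and -1.61) and hsa-miR-4521 its larger step second (-1.77).

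A ratio of counts within a library needs no scaling between libraries, and it set hsa-miR-4521 apart from hsa-miR-7974 and hsa-miR-1303 at 24 h. The ratios come from the same counts as the steps above and are not separate evidence. hsa-miR-4521 was counted 1.11 and 1.12 times as often as hsa-miR-7974 before treatment, 2.27 and 2.66 times as often after 24 h, and 1.17 times as often and equally often after 96 h. The 24 h libraries stood above the other 4, and the 0 h and 96 h libraries overlapped. The ratio of hsa-miR-4521 to hsa-miR-1303 had the same shape, with 2.63 and 3.92 before treatment, 6.11 and 6.46 after 24 h, and 2.09 and 3.87 after 96 h. The ratio of hsa-miR-7974 to hsa-miR-1303 had none, with 2.36 and 3.51, 2.69 and 2.43, and 1.79 and 3.87 at the 3 time points, the 24 h libraries lying within the range at 0 h. hsa-miR-4483 was counted 0.165 and 0.150 times as often as hsa-miR-7974 before treatment, 0.190 and 0.215 times after 24 h, and 0.0441 and 0.181 times after 96 h, so only 96 h replicate 1 was below the rest.

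**Figure D4:**
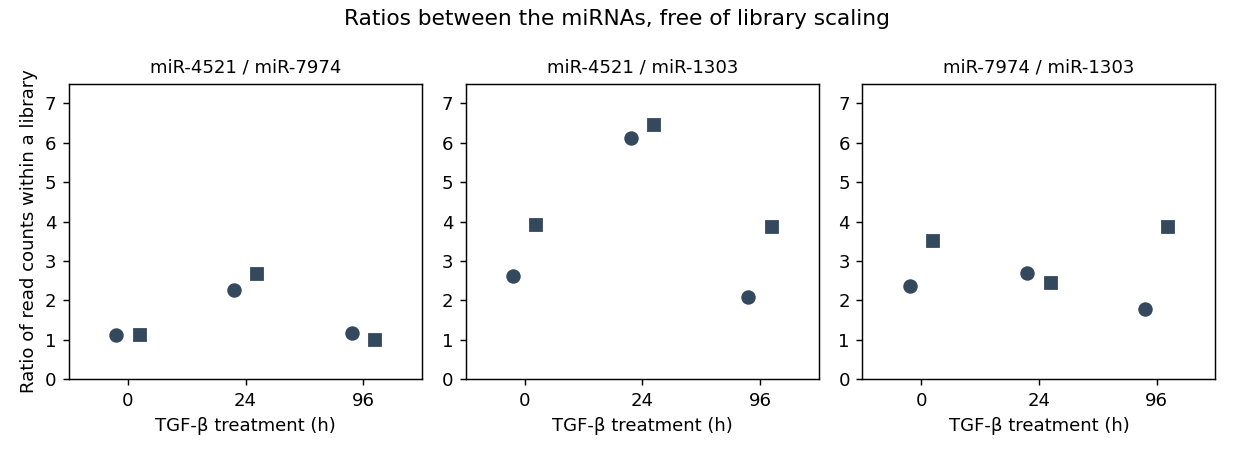
Ratio of the counts of 2 chosen miRNAs within each library, on a linear axis from 0, at 0, 24, and 96 h, with 1 panel per ratio, circles for replicate 1, and squares for replicate 2. hsa-miR-4521 over hsa-miR-7974 and over hsa-miR-1303 is highest in both 24 h libraries (2.27 and 2.66, and 6.11 and 6.46).

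miR-21-5p, known as a TGF-β-responsive oncogenic miRNA, took from 1287484 counts in a 0 h library to 3913945 in a 96 h library, and a scaling by total counts turns on it. Its mean TMM level was 432220 CPM at 0 h, 555310 CPM at 24 h, and 847270 CPM at 96 h, with a log2-fold change of 0.97 (SE 0.18) at 96 h against 0 h and 0.61 (SE 0.18) at 96 h against 24 h. A ratio to miR-21-5p therefore falls also for a miRNA whose own level stays the same, and the ratios are given only as values. Per 1000000 reads of miR-21-5p, hsa-miR-4521 had 381 and 444 reads before treatment, 190 and 225 after 24 h, and 40.6 and 39.0 after 96 h. hsa-miR-7974 had 342 and 398, 83.6 and 84.5, and 34.7 and 39.0. hsa-miR-1303 had 145 and 113, 31.1 and 34.8, and 19.4 and 10.1, and hsa-miR-4483 had 56.5 and 59.8, 15.9 and 18.2, and 1.53 and 7.07. The 24 h and 96 h libraries of hsa-miR-1303, which overlapped in TMM CPM, were apart in this ratio, whose denominator was higher at 96 h.

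The 2 sequencing runs of a library could be separated in 5 of the 6 libraries, all but 96 h replicate 2. Here a level is CPM of the run's own total, without TMM scaling. The run totals sum all entries, including repeats of a miRNA under further precursors, whereas the library totals above hold 1 entry per miRNA. Run levels are therefore somewhat lower than CPM of the library total. In 0 h replicate 1, hsa-miR-7974 had 355 reads in the larger run and 93 in the smaller, or 192 and 133 CPM, the widest gap between runs for this miRNA. Its runs in 24 h replicate 1 had 43.9 and 42.3 CPM, and those of 96 h replicate 1 had 19.3 and 26.6 CPM, so every run at a later time was below every run at 0 h. For hsa-miR-4483 the low level in 96 h replicate 1 was present in both runs, with 4 and 2 reads, or 0.858 and 1.16 CPM. Its runs at 0 h lay between 27.1 and 29.8 CPM. For hsa-miR-1303, where the 0 h libraries differed, the runs went with their library, at 76.9 and 68.5 CPM in replicate 1 and 56.4 and 50.8 CPM in replicate 2. Runs are repeats of 1 library and were not counted as replicates. The run titles carry dates, and every library has a run of the same first date. The second date was the same for both 24 h libraries and 0 h replicate 2, and later for both 96 h libraries and 0 h replicate 1. Between 24 h and 96 h, the second date and the time point therefore cannot be told apart.

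The 4 miRNAs come from 4 chromosomes, in GRCh37 coordinates. MIR4483 lies at chr10:115537752-115537813 on the minus strand, antisense in an intron of PLEKHS1, a gene for a protein with a pleckstrin homology domain. MIR4521 lies at chr17:8090263-8090322 on the plus strand and overlaps no annotated gene. It is 170 bases from MIR3676 on the same strand, which was not analysed here, and 1340 bases from BORCS6, which encodes a subunit of the lysosome-positioning BORC complex. MIR7974 lies at chr19:11606359-11606437 on the minus strand, in sense in an intron of ZNF653, a zinc finger gene. MIR1303 lies at chr5:154065336-154065421 on the plus strand, in sense in an intron of LARP1, which encodes an RNA-binding protein that controls translation of ribosomal protein messengers. None of the 4 overlaps an exon, and apart from MIR3676 no other annotated miRNA gene lies within 10 kb, so the 4 do not form a cluster.

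The mature sequence of hsa-miR-1303 was not unique in the genome. It matched GRCh37 exactly at 35 places on 18 chromosomes, 11 of them in sense within an annotated gene, whereas the other 3 sequences each matched 1 place. Of the 434 tested miRNAs with a sequence, 359 had 1 exact copy and 8 had at least 10, and hsa-miR-1303 ranked second behind miR-548aq-3p, with 572. A read of the mature sequence therefore cannot be assigned to MIR1303 by its letters alone, and the counts of hsa-miR-1303 are uncertain in their source.

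Precursors are shown for the 3 miRNAs whose hairpin was folded, since all 3 folds were weak beside those of other miRNAs. They are given 5′ to 3′ as in RefSeq with the mature strand in capitals.
MIR4483: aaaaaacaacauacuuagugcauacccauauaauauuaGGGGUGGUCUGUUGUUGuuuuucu
MIR4521: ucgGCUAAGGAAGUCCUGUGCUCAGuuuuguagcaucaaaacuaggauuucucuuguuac
MIR7974: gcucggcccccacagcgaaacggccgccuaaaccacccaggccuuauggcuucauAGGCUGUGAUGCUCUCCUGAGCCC
The mature strand is in the 5′ arm of MIR4521 (bases 4 to 25 of 60) and in the 3′ arm of MIR4483 (bases 39 to 55 of 62) and MIR7974 (bases 56 to 79 of 79). The predicted minimum free energy was -15.6 kcal/mol for MIR4483, -17.1 for MIR4521, and -23.6 for MIR7974, or -0.25, -0.28, and -0.30 kcal/mol per base. The median over the 321 RefSeq hairpins of tested miRNAs was -0.45 kcal/mol per base. Of these 321, 1 folded more weakly per base than MIR4483, 6 more weakly than MIR4521, and 14 more weakly than MIR7974. In the predicted folds 16 of the 17 mature bases of hsa-miR-4483 were paired, 15 of the 22 of hsa-miR-4521, and 12 of the 24 of hsa-miR-7974. These values come from sequence alone and say nothing about the counts. MIR1303 was not folded.

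**Figure D5:**
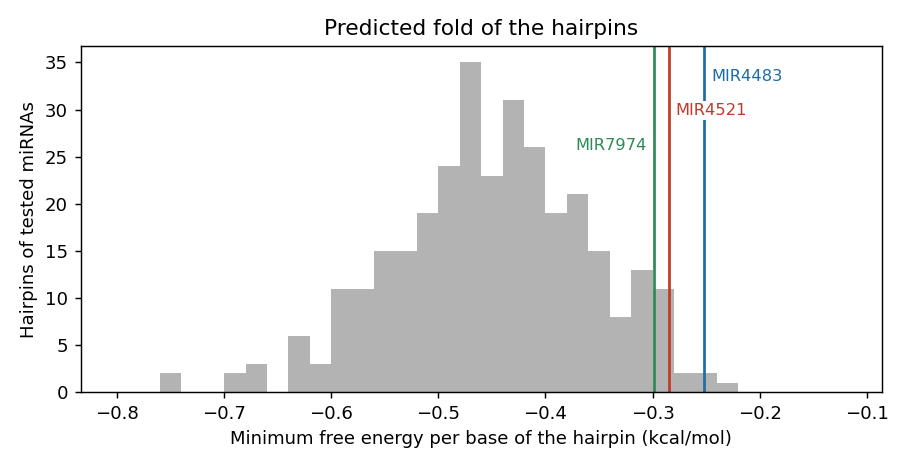
Histogram of predicted minimum free energy per base (kcal/mol per base) of the 321 RefSeq hairpins of tested miRNAs, with lines at MIR4483, MIR4521, and MIR7974. The 3 lines, at -0.25, -0.28, and -0.30, lie at the weak end, to the right of the median of -0.45. The strongest folds, those of MIR3158-1 (-0.91), MIR3158-2 (-0.87), and MIR625 (-0.88), lie beyond the left end and are not drawn.

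The relative of hsa-miR-4483 by seed was also measured. Among miRNAs with a RefSeq sequence, hsa-miR-1293 was the only other one that held the bases 2 to 8 of any of the 4. Of the 491 tested miRNAs, 434 had such a sequence, and those without one were not searched. It is given with its seed in capitals.
hsa-miR-1293: uGGGUGGUcuggagauuugugc
It was counted 9 and 12 times before treatment, 4 and 7 times after 24 h, and 5 and 8 times after 96 h. Its counts were low and overlapped between 24 h and 96 h. The log2-fold change was -1.07 (SE 0.60) at 96 h against 0 h, with an adjusted p of 0.165 by edgeR's quasi-likelihood test, and -0.89 (SE 0.62) at 24 h, with an adjusted p of 0.381 by the same test, so a change of this seed relative was not detectable at this depth.

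The tested miRNAs with the most similar course were found by the root mean square (RMS) difference of log2 CPM over the 6 libraries, each centred on its mean, over miRNAs at 10 CPM or more on average. For hsa-miR-4521 it was miR-486-3p, a strand of a precursor in an intron of the ankyrin gene ANK1 known for its level in red cells and muscle, with an RMS difference of 0.161. miR-486-3p was counted 66 and 84 times before treatment, 43 and 46 times after 24 h, and 18 and 14 times after 96 h. miR-486-5p, the other strand, came next at 0.290, with 353 and 445, 221 and 233, and 125 and 128 counts. For hsa-miR-4483 no miRNA came close, the nearest being miR-3912-3p at 0.480, with 173 and 156, 74 and 89, and 46 and 58 counts, and then miR-486-5p at 0.554.

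For hsa-miR-7974 and hsa-miR-1303 the nearest were the same pair, miR-1268b and miR-1268a, with RMS differences of 0.290 and 0.295 from hsa-miR-7974 and 0.365 and 0.352 from hsa-miR-1303. miR-1268a was counted 283 and 252 times before treatment, 101 and 127 times after 24 h, and 119 and 96 times after 96 h. Its 18 bases are the first 18 of the 20 bases of miR-1268b, so the pair shares reads and counts as 1 observation, and miR-1268a has 34 exact copies in the genome. Between the chosen miRNAs, hsa-miR-7974 and hsa-miR-1303 were nearest at 0.359, and the other pairs lay between 0.551 and 0.886. All of these likenesses rest on the same 6 libraries and describe a shared shape only.

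Late-numbered miRNAs, those that entered the catalogue late, were described as a group, without the chosen 4 where a share is read. Of the 94 tested miRNAs numbered 1000 or higher, to which the chosen 4 belong, 11 were higher and 21 lower at 96 h against 0 h. Without the 4, 17 of 90 (18.9%) were lower, with a median log2-fold change of -0.30. Over all tested miRNAs, also without the 4, 61 of 487 (12.5%) were lower, with a median of -0.10. Of the 397 numbered under 1000, 51 were higher and 44 (11.1%) lower, with a median of -0.06. At 24 h against 0 h, 1 of the 94 was higher and 5 were lower. Without the 4, 3 of 90 (3.33%) were lower, with a median of -0.21, beside 9 of all 487 tested (1.85%) and 6 of the 397 (1.51%). From 24 h to 96 h, 11 of the 94 were higher and 4 lower, against 7 and 7 of the 397, so that more late-numbered miRNAs passed upward than downward in this step, although their median without the 4 was -0.18. The late-numbered miRNAs were also scarcer, with a median level of 7.98 CPM against 37.9, and the part of this difference in level was not tested. Of the 91 tested miRNAs named without a strand suffix, a list set up after values were seen that also holds the chosen 4, 11 were higher and 21 lower at 96 h against 0 h. Without the 4, 17 of 87 (19.5%) were lower, with a median of -0.26, beside the 12.5% of all tested miRNAs without the 4.

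Among 25 miRNAs linked in general knowledge to TGF-β or EMT, a list made with earlier results known, 23 were tested, and 3 were higher and 0 lower at 96 h against 0 h by edgeR's test, beside 62 higher and 65 lower of all 491. The median log2-fold change over the 23 was 0.56. The 3 were miR-143-3p, at 6.32 (SE 0.22), miR-200b-3p, an epithelial miRNA of the miR-200 family, at 1.60 (SE 0.20), and miR-145-5p, which shares a transcript with miR-143-3p and was near 0 counts at 0 h. Without a fold minimum and at an unadjusted p below 0.05, 13 were higher and 3 lower at 96 h, and DESeq2 gave 5 higher and 0 lower past both thresholds. At 24 h edgeR gave 1 higher and 0 lower, or 6 and 0 at the unadjusted p, and DESeq2 gave 1 and 0. From 24 h to 96 h, 2 were higher and 1 lower by both tools. None of the chosen 4 belongs to this list.

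The labelled cell line was checked against markers. miR-21-5p and miR-31-5p were abundant in all 6 libraries, the latter with 11991 to 38581 counts, while the epithelial miR-200c-3p had 35 to 75 counts and miR-205-5p, a marker of squamous and basal epithelium, 0 to 3. Of 4 blood cell markers, miR-223-3p was at 0 in all 6 libraries, miR-451a had 1 to 3 counts, miR-144-3p had 3 counts in 1 library and 0 in the others, and miR-142-3p had 12 and 7 counts before treatment, 4 and 2 after 24 h, and 2 and 1 after 96 h. Summed over the 4 markers, the level was 4.76 and 3.88 CPM before treatment, 1.86 and 0.918 after 24 h, and 0.908 and 0.814 after 96 h. The sum moved in the same direction as the chosen miRNAs, at a small part of the level of hsa-miR-4521 and hsa-miR-7974. It was nearer to hsa-miR-4483, which had 27.1 and 23.0 CPM before treatment and 1.36 and 5.70 CPM after 96 h. The part of the markers in the fall of the chosen miRNAs was not tested.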

How the data were processed

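The authors made small RNA libraries with an Illumina kit, sequenced them on a HiSeq 2000, and counted reads with miRDeep2. The submitters' processing notes name FastQC and hg19, and the annotation and mapping settings are not given in the sources used here. The authors deposited counts, whole reads per mature miRNA and precursor with both runs of a library summed, and a table of normalized signal, which served only to separate runs. There, 1 column repeats another and was not used. For each miRNA the entry with the highest total was taken. Groups came from the labelled time points.

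Counts were fitted in R 4.3.3 with edgeR 4.0.16 (TMM, filterByExpr with a minimum count of 10, quasi-likelihood F-test, time point as the only term, all 6 libraries), and p-values were adjusted by the Benjamini-Hochberg method over all 491 tested miRNAs. A call needed a log2-fold change beyond 1 in size and an adjusted p below 0.05. The standard error is the absolute log2-fold change over the square root of F. The fit was also run on simulated counts, with a fixed spread for all miRNAs and rises and falls drawn alike. That run checks the code and does not show how the fit performs on these libraries. Alternatives were other scalings, tests, and filters, thinning, DESeq2 1.42.0, a replicate block, and leaving out each library; the block with crossed 24 h numbers was added after seeing the data. The 2 libraries of each time point differed beyond sampling noise and were counted as replicates. Runs were separated by finding the run totals at which normalized values became whole reads. All entries with 5 to 2000 counts, from 523 to 580 a library, came out whole within 0.0118 to 0.0547 reads.

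RefSeq sequences (GRCh38.p14 table) matched 4 of 4 mature miRNAs and 3 of 4 hairpins, which were located on GRCh37 by exact match and folded with RNAfold 2.7.2. MIR1303 was placed by GENCODE on GRCh37. The miRNAs and lists were chosen with earlier results of these data known. Named miRNAs were the chosen 4, any with the same seed or within 10 kb, the 2 most alike in course for each, list examples, and miR-21-5p.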

Additional observations from a re-analysis of the deposited data

Results flagged for a closer look

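hsa-miR-4521 differed between 96 h and 24 h with a log2-fold change of -1.77 by edgeR's quasi-likelihood test, past both thresholds, which drew attention because it shows that its changes from the shared 0 h libraries, -0.61 at 24 h and -2.38 at 96 h, were unequal. Its library levels were 102 and 129 CPM at 24 h against 36.1 and 31.5 CPM at 96 h. hsa-miR-4521 was chosen for its fall, so this is a description.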

How the results depend on the processing

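The log2-fold change of each of the 4 miRNAs was below 0 in all 3 comparisons under all 18 settings. The 4 were chosen for their fall, so their calls given here are a description and not support for it. At 96 h against 0 h all 4 passed both thresholds under every setting, with 93 to 142 of all tested miRNAs past them when 1 library was left out. Scaling by total counts moved the median log2-fold change of all miRNAs at 96 h from -0.10 to -0.83 and gave 215 calls, 23 higher and 192 lower, against 62 higher and 65 lower with TMM. Total counts without miR-21-5p gave 39 higher and 121 lower, and DESeq2's size factors 75 and 53. With no minimum fold change 216 miRNAs passed. At 24 h the 17 calls became 33 with total counts, 26 with total counts without miR-21-5p, 28 with edgeR's exact test, 35 with no minimum fold change, and 4 to 36 with 1 library left out, when 1 to 3 of the 4 passed. hsa-miR-4483, at -1.39, passed at -1.67 with total counts, among other settings. From 24 h to 96 h the 29 calls became 72 with total counts (3 of the 4), 47 with the exact test (2 of the 4), 46 with no expression filter (2 of the 4), 17 with a mean of at least 10 CPM, 62 with no minimum fold change, 44 with only the libraries compared, and 9 to 46 with 1 library left out, when 1 to 2 of the 4 passed. At 24 h against 0 h the count was 5 when 24 h replicate 1 was left out, 4 when 24 h replicate 2 was, and 36 when 0 h replicate 1 was. From 24 h to 96 h it was 9 when 24 h replicate 1 was left out, 11 and 16 when 96 h replicate 1 or 2 was, and 46 and 44 when 0 h replicate 1 or 2 was. The cause of these shifts was not tested.

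The correlations of same-numbered deviations were -0.30 for 0 h and 24 h, 0.31 for 0 h and 96 h, and -0.18 for 24 h and 96 h. Both negative values involve 24 h, and whether the replicate numbers pair the libraries cannot be told from these values. With a replicate block, 124 miRNAs passed at 96 h, 20 at 24 h, and 41 from 24 h to 96 h (4, 3, and 2 of the 4). Crossing the 24 h numbers, chosen after seeing the data, gave 140, 27, and 43. With 1 read worth 0.167 to 0.428 CPM, the depth limits miRNAs with few counts, such as hsa-miR-4483 at 96 h and hsa-miR-1293. A fit without 1 library leaves a single library at that time point, which is assumed to vary like those of the other time points.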
